A study of Rattus norvegicus with 8 samples.

Results

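NF-kB is a family of transcription factors, and the genes described here are its 5 subunits (Rela, Relb, Rel, Nfkb1 and Nfkb2) and 5 genes of the I-kappa-B family that bind and restrain or redirect them (Nfkbia, Nfkbib, Nfkbie, Bcl3 and Nfkbiz). They were taken by gene symbol from a table of raw RNA-seq counts. All 10 symbols were present among 28546 gene entries, and all 10 were among the 14445 genes that passed the low-count filter and were tested. The cells were cultured astrocytes of Sprague Dawley rat pups, exposed to 12-273 BM melanoma cells or to their medium. The sh-APP group (n = 3) met melanoma cells with a hairpin that targets App, the gene of the amyloid precursor protein. The anti-Abeta group (n = 3) met cells with a scrambled hairpin in the presence of an amyloid beta antibody, and the control group (n = 2) met cells with the scrambled hairpin alone. Every group therefore met melanoma cells or their products, and no astrocytes without melanoma are analysed here. The labels differ on the exposure, naming a co-culture, 24 h in melanoma medium, and astrocyte medium placed on melanoma cells. They give a single hairpin name (shAPPa). Whether libraries of the same group were separate cultures is not stated, so p-values here reflect the spread between libraries, which may be technical.

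In resting cells the subunits sit in the cytoplasm as dimers held by inhibitor proteins. In the canonical pathway, receptors of the tumor necrosis factor, interleukin-1 and Toll-like families activate a kinase complex that marks the inhibitor for destruction, and dimers of Rela and the p50 product of Nfkb1 then enter the nucleus. In the non-canonical pathway, receptors such as Ltbr lead to the processing of Nfkb2 into p52, the usual partner of Relb. Several family genes, among them Nfkbia, Nfkb2, Relb and Nfkbiz, are themselves known targets of NF-kB. For an inhibitor such as Nfkbia, this limits the response. In astrocytes the pathway is known for driving chemokines, complement C3 and other inflammatory genes. The libraries measured RNA, so neither nuclear entry nor the processing of the p105 and p100 precursors was observed.

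Library totals ran from 34250464 to 47831595 counts, and of the members Rel alone was close to the detection limit, with 13 to 55 counts a library. The 10 astrocyte markers were all present, at summed levels of 18445 to 21381 CPM (counts scaled to a common library size with TMM factors) in sh-APP, 14777 to 16103 CPM in anti-Abeta and 16733 to 17305 CPM in control. Gfap, one of them, averaged 6532 CPM in sh-APP, 3728 in anti-Abeta and 2911 in control. Against control, edgeR called 7 of the 10 higher and 1, Gja1, lower in sh-APP (80%, against 53.7% of all tested genes). In anti-Abeta 3 were called higher and 3 lower (60%, against 29.2%). Of microglia markers, 9 of the 10 found in the table averaged under 1 CPM, Cx3cr1 was at 0 in every library, and their sum, nearly all of it the lysosomal gene Cd68, was 10.7 to 13.4 CPM in sh-APP, 11.9 to 21.9 CPM in anti-Abeta and 11.8 to 15.4 CPM in control. Within the sum, Tyrobp, an adaptor of microglial receptors, rose in sh-APP at a low level, with 20, 33 and 29 counts in sh-APP, 10, 20 and 13 in anti-Abeta, and 5 and 1 in control (log2 fold change 2.84 ± 0.79 in sh-APP, SE; adjusted p = 0.00882, edgeR). C1qa, a complement gene of microglia, had 4, 4 and 9 counts in sh-APP, 0, 3 and 0 in anti-Abeta, and 0 and 0 in control, and was not tested. Tyrobp and C1qa moved in the direction of most members, and their part in the members' changes was not tested. Cd68, far above both in level, averaged 10.4 CPM in sh-APP, 16.1 in anti-Abeta and 13.3 in control. In sh-APP it thus moved the other way (log2 fold change -0.36 against control, not called). Anti-Abeta replicate 2 stood apart from its group, with a chi-square per degree of freedom of 31.9 and 47.0 against its partners, while the other pairs within groups had 17.5 to 20.9. On the second principal component (12.3% of the variance) it was anti-Abeta replicate 1 that stood apart, at 47.4, with the other libraries between -11.0 and 0.63.

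To show the letters through which the family is thought to regulate itself, stretches of the promoters are given first. RefSeq windows of 300 bases (250 before and 50 after the start, assembly GRCr8) were matched for 9 of the 10 members, the exception being Relb. A match to the kappa-B consensus, the 10-base site that NF-kB dimers bind, was found on either strand in 7 of these 9 windows, against 4.18% of 33469 windows of the same length over all genes. Rela and Nfkbib held none. Each line gives the consensus match in capitals with 10 flanking bases on each side, on the strand of the gene.
Nfkb1: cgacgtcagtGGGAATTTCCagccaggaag
Nfkbiz: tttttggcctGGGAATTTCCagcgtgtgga
Nfkb2: tggtattttcGGGACTTTCCtaagagcact
Nfkbia: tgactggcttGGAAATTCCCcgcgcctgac
Bcl3: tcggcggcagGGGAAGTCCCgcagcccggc
Nfkbie: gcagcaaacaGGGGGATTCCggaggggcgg
Rel: cgtaggcagcGGGAAATCCCcccccgttcc
The stretches lie at chr2:226805440-226805469 (minus strand) for Nfkb1, chr11:58251698-58251727 (plus) for Nfkbiz, chr1:255108344-255108373 (plus) for Nfkb2, chr6:78597084-78597113 (minus) for Nfkbia, chr1:88613574-88613603 (minus) for Bcl3, chr9:22948017-22948046 (minus) for Nfkbie and chr14:101922001-101922030 (minus) for Rel. Nfkb1 and Nfkbiz carry the same 10 letters. Rel holds a second match that begins 1 base further on and ends with the first lower-case base after the capitals. In Nfkbiz the capitals begin 13 bases before the start, in Nfkb2 20, in Nfkbia 31 and in Bcl3 38 bases before it. A match is a description of the letters and not evidence that a factor was bound in these cells.

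The first comparison asks what changed in the astrocytes when App was targeted in the melanoma cells. Of the 10 members 8 rose in sh-APP against control, Nfkbiz fell, and Rel was not called (edgeR's quasi-likelihood test, adjusted p under 0.05). The background was high: 25.8% of all tested genes passed as higher and 27.9% as lower, 53.7% in all, and with library totals in place of TMM factors 5174 genes were higher and 3091 lower, in place of 3723 and 4027. For the same 8 members every sh-APP library lay above both control libraries, which held for 35.7% of all tested genes, and for Nfkbiz every sh-APP library lay below, which held for 35% of them. The median log2 fold change of the 10 members was 0.48, against 0.03 over all tested genes. The rises were moderate in size: Bcl3 and Relb, the members with the largest, exceeded 88.8% and 88.7% of tested genes, and Nfkbia, with the smallest, exceeded 68.2%. In bulk RNA, a change in the share of cells that express a gene and a change of RNA per cell cannot be told apart.

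Among the subunits, Relb, which pairs with p52 in the non-canonical pathway, stood at 58.4, 57.2 and 55.9 CPM in the sh-APP libraries, against 35.6 and 35.6 CPM in the control libraries. The groups were far apart and the libraries within each were close together. RefSeq gave no promoter window for it. Its log2 fold change was 0.68 ± 0.09 (SE), with adjusted p = 4.74e-05 in edgeR's test. Rela, the main transactivating subunit of the canonical pathway, stood at 164, 158 and 163 CPM in sh-APP against 112 and 125 CPM in control. The lowest sh-APP library lay above the highest control library, and Rela rose by 0.45 ± 0.08 on the log2 scale (adjusted p = 0.00063, edgeR).

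Nfkb2, the precursor of p52, stood at 71.3, 66.6 and 72.8 CPM in sh-APP against 47.6 and 52.1 CPM in control. It rose by 0.50 ± 0.09 (SE, log2 scale; adjusted p = 0.00039, edgeR) with no overlap of the libraries. Nfkb1, the precursor of p50, stood at 96.7, 90.7 and 98.9 CPM in sh-APP and at 68.6 and 77.0 CPM in control, again without overlap. Its rise of 0.39 ± 0.08 (log2 scale) had adjusted p = 0.00112 (edgeR). Rel, the c-Rel subunit best known from lymphocytes, was close to the detection limit, with 29, 38 and 55 counts in sh-APP and 29 and 19 counts in control. The groups overlapped, and the 95% interval of its log2 fold change, -0.71 to 1.64, allows a fall as well as a large rise.

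**Figure D1:**
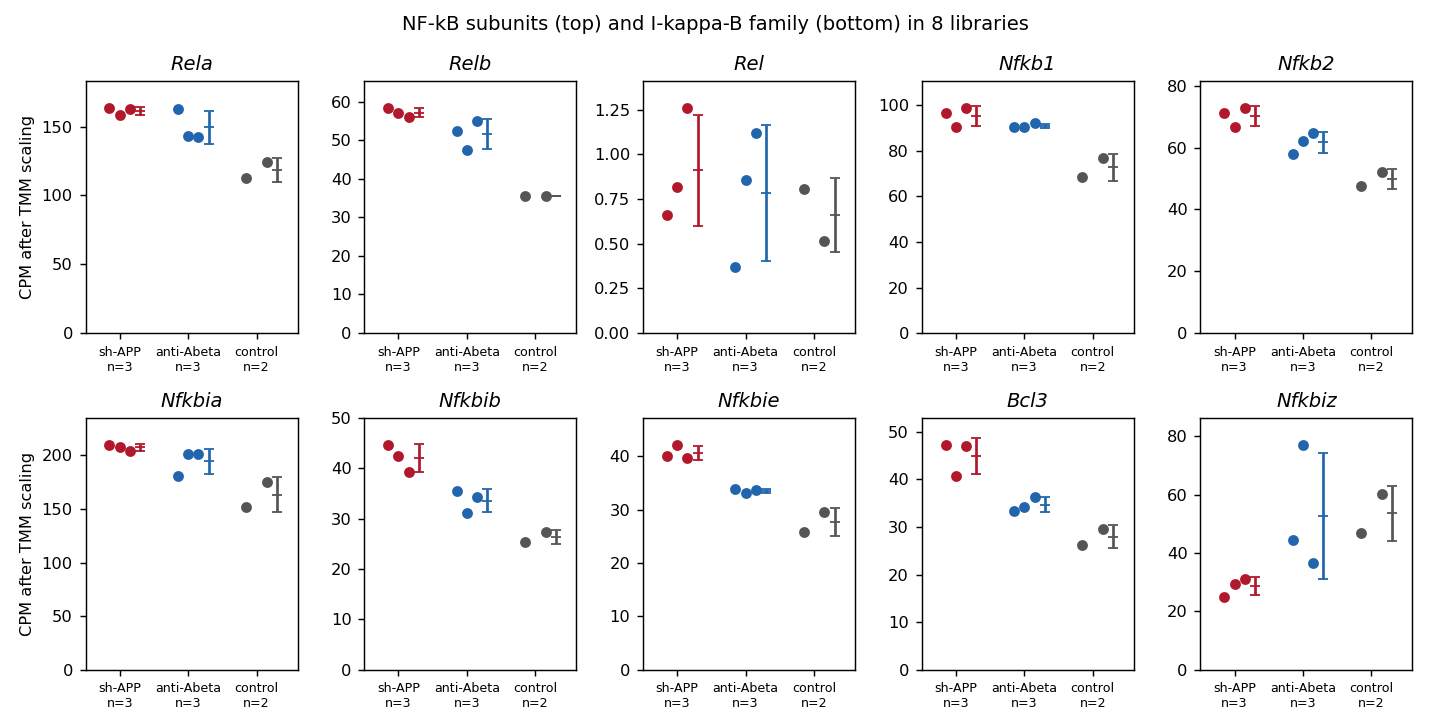
Level of each member in every library, in CPM after TMM scaling on axes that start at 0, with sh-APP (n = 3), anti-Abeta (n = 3) and control (n = 2) from left to right; points are libraries and bars the mean ± SD. In 8 panels both arms lie above control, Rel is under 1.3 CPM and overlaps in all groups, and Nfkbiz is lowest in sh-APP with anti-Abeta replicate 2 highest at 77.1 CPM.

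The classical inhibitors, which hold dimers in the cytoplasm, rose together with the subunits. Nfkbia encodes I-kappa-B alpha, the inhibitor that is degraded and resynthesised fastest. It stood at 210.0, 208 and 204 CPM in sh-APP against 152 and 175 CPM in control. The libraries did not overlap. The rise of 0.34 ± 0.08 (SE, log2 scale; adjusted p = 0.00358, edgeR) did not pass when control replicate 1 was left out (log2 fold change 0.25, adjusted p = 0.0651). Leaving out either control library leaves 1, which is then assumed to vary like the libraries of the other groups, so such a fit also has less power.

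Nfkbib, the gene of I-kappa-B beta, which is degraded more slowly, stood at 44.7, 42.4 and 39.2 CPM in sh-APP against 25.3 and 27.4 CPM in control. It rose by 0.67 ± 0.10 (log2 scale; adjusted p = 0.000146, edgeR), and its promoter window held no kappa-B match. In the GRCr8 table Nfkbib is the only member that overlaps another gene, LOC103689966, which has no row in the counts. Nfkbie, the gene of I-kappa-B epsilon, stood at 40.1, 42.2 and 39.8 CPM in sh-APP and at 25.8 and 29.6 CPM in control. Every sh-APP library lay above both control libraries for these genes, and Nfkbie rose by 0.55 ± 0.09 (adjusted p = 0.00036, edgeR).

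The 2 remaining I-kappa-B genes encode nuclear proteins that bind p50 or p52 on DNA and can activate as well as repress, and they moved in opposite directions. Bcl3 stood at 47.3, 40.7 and 47.0 CPM in sh-APP against 26.2 and 29.6 CPM in control. It rose by 0.69 ± 0.10 (SE, log2 scale; adjusted p = 0.000155, edgeR) and kept its call with each library left out in turn. Nfkbiz encodes I-kappa-B zeta, which is induced by interleukin-1 and Toll-like receptor signals and is needed for a subset of NF-kB targets. It stood at 25.1, 29.5 and 31.2 CPM in sh-APP against 46.9 and 60.3 CPM in control. The highest sh-APP library lay well below the lower control library.

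Nfkbiz fell by 0.91 ± 0.24 (SE) on the log2 scale, to 28.6 ± 3.16 CPM in sh-APP (SD, n = 3) against 53.6 ± 9.43 CPM in control (n = 2), with adjusted p = 0.00699 (edgeR). The call was lost without control replicate 2, the higher of the control libraries (log2 fold change -0.70, adjusted p = 0.0991), with library totals in place of TMM factors (-0.70, 0.0545) and with no low-count filter (-0.90, 0.105). Of all tested genes, 13.8% had a lower log2 fold change than Nfkbiz. Its promoter stretch carries the same 10 letters as that of Nfkb1, which rose.

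The second comparison asks what the amyloid beta antibody changed. The same 8 members that rose in sh-APP rose in anti-Abeta, against 12.7% of all tested genes that passed as higher, 16.6% as lower and 29.2% in all. With library totals in place of TMM factors, 3590 genes were higher and 1417 lower, in place of 1832 and 2391. For these 8 members every anti-Abeta library lay above both control libraries, as it did for 27.9% of all tested genes. No member was lower by edgeR (0 also at an unadjusted p under 0.05), by DESeq2 (0) or by limma-voom (0), and none lay wholly below control, as 27% of tested genes did. Both comparisons use the same 2 control libraries, so the shared direction is not independent. The members' median log2 fold change was 0.31, against 0.03 over all tested genes. Control replicate 1 stood below control replicate 2 for 7 of the 8 genes and level with it for Relb. Without control replicate 1 the log2 fold changes of those 7 were 0.14 to 0.28, in place of 0.25 to 0.35, and 1 of the 8, Relb, was called. That fit has 1 control library, and over all genes it called 54 higher in place of 1832, so the loss of calls is not particular to the members. With control replicate 2 left out instead, the log2 fold changes of the 8 stayed above 0, and the calls of Nfkbib and Bcl3 were lost.

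Relb was the member that stayed called in every alternative run. It stood at 52.5, 47.5 and 55.1 CPM in anti-Abeta against 35.6 and 35.6 CPM in control. The 3 anti-Abeta libraries were all well above both control libraries, and the log2 fold change was 0.54 ± 0.09 (SE; adjusted p = 0.00263, edgeR), with adjusted p from 3.56e-06 to 0.0481 over the alternatives. Relb exceeded 92.9% of tested genes in its log2 fold change. Without control replicate 1 the log2 fold change was 0.53 (adjusted p = 0.0481).

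Rela stood at 163, 143 and 142 CPM in anti-Abeta against 112 and 125 CPM in control. Its rise of 0.33 ± 0.08 (SE, log2 scale; adjusted p = 0.0121, edgeR) was 0.25 and not called without control replicate 1 (adjusted p = 0.148). Nfkb1 stood at 90.7, 90.5 and 92.1 CPM in anti-Abeta, a narrow range, against 68.6 and 77.0 CPM in control. Its rise of 0.32 ± 0.08 (adjusted p = 0.011, edgeR) was 0.23 and not called in the same fit (0.154). Nfkb2 stood at 58.1, 62.2 and 64.8 CPM in anti-Abeta against 47.6 and 52.1 CPM in control. It rose by 0.31 ± 0.09 (adjusted p = 0.0193, edgeR), a call lost without control replicate 1 (0.200), without anti-Abeta replicate 3 (0.0622) and with the replicate number as a block (0.053). Rel had 13, 35 and 55 counts in anti-Abeta against 29 and 19 in control, and its groups overlapped (adjusted p = 0.755, edgeR).

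The I-kappa-B genes that rose were closer to the threshold in anti-Abeta. Nfkbia stood at 181, 202 and 201 CPM in anti-Abeta against 152 and 175 CPM in control, with a log2 fold change of 0.25 ± 0.08 (SE; adjusted p = 0.0381, edgeR). Its lowest anti-Abeta library exceeded the higher control library by only a few CPM, and 8 of 18 alternatives ended the call. Nfkbib stood at 35.4, 31.1 and 34.3 CPM in anti-Abeta against 25.3 and 27.4 CPM in control (0.35 ± 0.10, adjusted p = 0.0236, edgeR). This call was lost without anti-Abeta replicates 1 or 3 or either control library (adjusted p from 0.0578 to 0.192).

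Nfkbie stood at 33.8, 33.1 and 33.7 CPM in anti-Abeta against 25.8 and 29.6 CPM in control (log2 fold change 0.28 ± 0.09, adjusted p = 0.0458, edgeR). The libraries did not overlap, but 12 of 18 alternatives ended the call. Bcl3 stood at 33.3, 34.3 and 36.4 CPM in anti-Abeta against 26.2 and 29.6 CPM in control (0.31 ± 0.10, adjusted p = 0.041, edgeR), and 10 of 18 alternatives ended its call. The leave-one-out adjusted p reached 0.361 for Nfkbie, 0.32 for Bcl3 and 0.387 for Nfkbia, in each case without control replicate 1.

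Nfkbiz did not pass in anti-Abeta, where its libraries were more scattered than those of any member except Rel. It stood at 44.4, 77.1 and 36.6 CPM in anti-Abeta against 46.9 and 60.3 CPM in control, so that replicate 2 lay above both control libraries and replicates 1 and 3 below both. The log2 fold change was -0.03 ± 0.24 (SE; 95% interval -0.55 to 0.50; adjusted p = 0.951, edgeR). Without anti-Abeta replicate 2, it was -0.42 with adjusted p = 0.0384. The level of Nfkbiz in this arm therefore differs with a single library, and no direction is given for it.

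**Figure D2:**
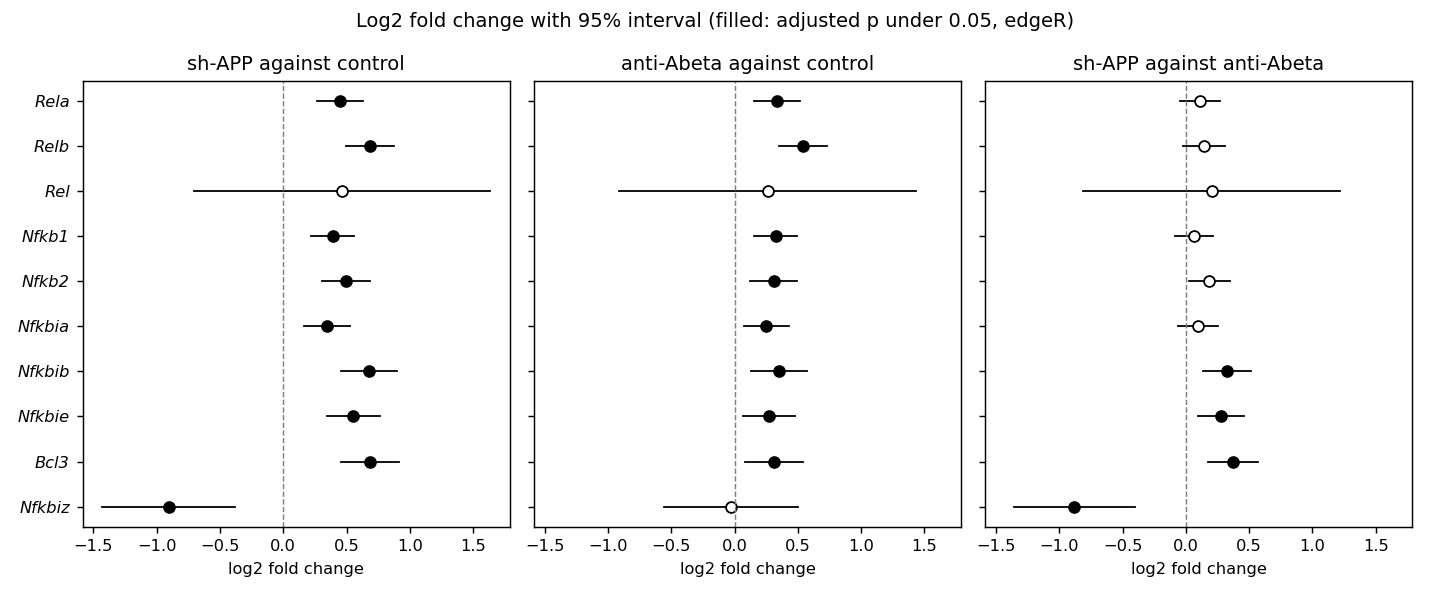
Log2 fold change of each member (x axis) in the 3 comparisons, with the 95% interval as a line; filled points have adjusted p under 0.05 in edgeR's test. The 8 members that rose lie between 0.34 and 0.69 in sh-APP against control and between 0.25 and 0.54 in anti-Abeta against control, and in sh-APP against anti-Abeta Nfkbib, Nfkbie and Bcl3 are filled above 0 and Nfkbiz below 0.

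The third comparison sets the arms against each other and so tests where they differ. The I-kappa-B family carried the called differences. Bcl3, Nfkbib and Nfkbie were higher and Nfkbiz lower in sh-APP than in anti-Abeta, while Nfkbia was not called (log2 fold change 0.09, adjusted p = 0.392, edgeR). Of all tested genes, 10.1% passed as higher, 16% as lower and 26.1% in all. Bcl3 averaged 45.0 ± 3.74 CPM in sh-APP and 34.7 ± 1.55 CPM in anti-Abeta (SD, n = 3 each), a log2 fold change of 0.38 ± 0.09 (SE; adjusted p = 0.0108, edgeR). This was the only I-kappa-B gene called under every alternative, with adjusted p up to 0.0474. Nfkbib averaged 42.1 ± 2.74 CPM in sh-APP and 33.6 ± 2.21 CPM in anti-Abeta, and was higher by 0.32 ± 0.09 (adjusted p = 0.019), a call lost without sh-APP replicate 1 (0.0802). Nfkbie averaged 40.7 ± 1.33 CPM in sh-APP and 33.5 ± 0.367 CPM in anti-Abeta. It was higher by 0.28 ± 0.08 (adjusted p = 0.0273, edgeR), a call lost in turn without each sh-APP library and without anti-Abeta replicates 1 and 3 (0.053 to 0.0869).

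Nfkbiz averaged 28.6 ± 3.16 CPM in sh-APP and 52.7 ± 21.5 CPM in anti-Abeta, and all 3 sh-APP libraries lay below all 3 anti-Abeta libraries, as they did for 22.1% of tested genes. The reverse, every sh-APP library above every anti-Abeta library, held for Bcl3, Nfkb2, Nfkbia, Nfkbib, Nfkbie and Relb and for 19.2% of tested genes. Its log2 fold change was -0.88 ± 0.22 (SE; adjusted p = 0.0126, edgeR). Without anti-Abeta replicate 2 the value was -0.48 with adjusted p = 0.024, and the call was lost without sh-APP replicate 2 (adjusted p = 0.0551) and with no low-count filter (0.137). None of the 5 subunits was called higher or lower in edgeR's test, DESeq2 or limma-voom, while at an unadjusted p under 0.05 there was 1, Nfkb2. For Rela the 95% interval of the log2 difference was -0.04 to 0.27, for Relb -0.02 to 0.31, for Nfkb1 -0.08 to 0.22 and for Nfkb2 0.02 to 0.35, so that differences up to these sizes are compatible with the data. Nfkb2 passed with upper-quartile factors (adjusted p = 0.0481) and with library totals alone (0.0427).

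Ratios of 2 members within a library do not depend on how libraries are scaled to each other, and show whether the family kept its proportions. They are given as log2 of the count ratio, as a description without a test. How often ratios of other gene pairs separate the groups was not counted. Separation was common for single genes: 35.7% of tested genes lay wholly above control in sh-APP and 35% wholly below. In anti-Abeta these shares were 27.9% and 27%. Relb to Rela was -1.49, -1.47 and -1.54 in sh-APP, -1.63, -1.59 and -1.37 in anti-Abeta, and -1.66 and -1.81 in control. Relb thus gained on Rela in both arms, by 0.23 in sh-APP and 0.20 in anti-Abeta on the log2 scale, with no overlap with control. In anti-Abeta the margin was narrow, with -1.63 in replicate 1 against -1.66 in control replicate 1. Nfkb2 to Nfkb1 was -0.44, -0.45 and -0.44 in sh-APP, -0.64, -0.54 and -0.51 in anti-Abeta, and -0.53 and -0.56 in control, so this shift to the p52 precursor was seen in sh-APP and overlapped control in anti-Abeta.

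Nfkbia to Rela, the main inhibitor against its main target, was 0.36, 0.40 and 0.32 in sh-APP, 0.15, 0.50 and 0.50 in anti-Abeta, and 0.43 and 0.49 in control. Every sh-APP library lay below both control libraries, by 0.10 on average. Within the I-kappa-B family, Nfkbib to Nfkbia averaged -2.30 ± 0.07 in sh-APP (SD, n = 3), -2.53 ± 0.17 in anti-Abeta (n = 3) and -2.63 ± 0.07 in control (n = 2). Bcl3 to Nfkbia averaged -2.21 ± 0.13 in sh-APP, -2.49 ± 0.06 in anti-Abeta and -2.55 ± 0.02 in control. In sh-APP both ratios lay above control without overlap, while in anti-Abeta they overlapped it. Nfkbiz to Nfkbia was -3.07, -2.82 and -2.71 in sh-APP, -2.03, -1.39 and -2.46 in anti-Abeta, and -1.69 and -1.54 in control. The sh-APP libraries lay below all others, by 1.25 on the log2 scale against control.

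**Figure D3:**
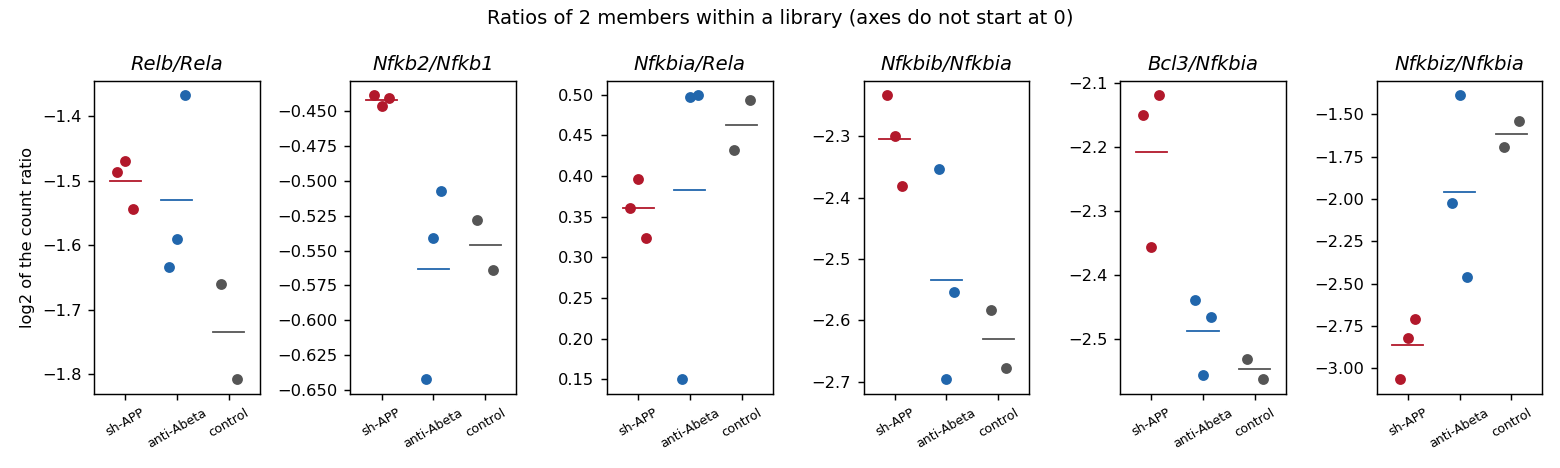
Log2 of the count ratio of 2 members in each library (y axes do not start at 0), with sh-APP, anti-Abeta and control from left to right and the group mean as a line. In sh-APP, Relb/Rela, Nfkb2/Nfkb1, Nfkbib/Nfkbia and Bcl3/Nfkbia lie above both control libraries and Nfkbia/Rela and Nfkbiz/Nfkbia below both. In anti-Abeta only Relb/Rela does not overlap control, and narrowly so (-1.63 in anti-Abeta replicate 1 against -1.66 in control replicate 1).

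Upstream of the family, few of the ligands passed the filter. Of 13 ligand genes 4 passed the filter, and Tnf, Lta, Ltb, Tnfsf11 and Il17a were at 0 counts in all 8 libraries. Tnfsf12, the ligand TWEAK, stood at 32.8, 31.2 and 29.4 CPM in sh-APP, 25.9, 23.8 and 27.6 CPM in anti-Abeta, and 16.9 and 19.2 CPM in control. The groups did not overlap, and the gene rose by 0.79 ± 0.11 in sh-APP (SE, log2 scale; adjusted p = 0.000103, edgeR) and by 0.51 ± 0.11 in anti-Abeta (0.0073). Without control replicate 1 the anti-Abeta value was 0.41 and not called (0.104). It was the only ligand called in sh-APP by edgeR, and 0 were lower, the same number as by DESeq2, by limma-voom and before adjustment of p. Il33, an alarmin of the interleukin-1 family, was at 4.52 ± 0.61 CPM in anti-Abeta (SD, n = 3) and 6.42 ± 0.584 CPM in control (n = 2), a call that 13 of 18 alternatives ended (adjusted p = 0.0442 in edgeR's test).

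Of 24 receptors and adaptors, 7 rose and 3 fell in sh-APP, and 4 rose and 2 fell in anti-Abeta. In all 41.7% were called in sh-APP, against 53.7% of all tested genes, and 25% in anti-Abeta, against 29.2%. With library totals in place of TMM factors 11 rose and 3 fell in sh-APP, and 9 rose and 1 fell in anti-Abeta. The list's median log2 fold change was 0.21 in sh-APP and 0.15 in anti-Abeta, against 0.03 over all tested genes in both. Ltbr, the lymphotoxin beta receptor that feeds the non-canonical pathway, stood at 119, 111 and 119 CPM in sh-APP, 92.4, 77.1 and 97.3 CPM in anti-Abeta, and 66.4 and 72.2 CPM in control. Both arms lay above control, and Ltbr rose by 0.75 ± 0.10 in sh-APP (SE, log2 scale; adjusted p = 6.21e-05, edgeR). Those that fell in sh-APP were Il1rap, Tlr4 and Tlr3. Il1rap, the shared chain of the interleukin-1 and interleukin-33 receptors, was at 103, 122 and 108 CPM in sh-APP against 177 and 176 CPM in control (-0.67 ± 0.09, adjusted p = 4.62e-05, edgeR). Tlr4, the receptor for bacterial endotoxin, was at 2.97, 3.92 and 4.67 CPM in sh-APP against 11.1 and 12.4 CPM in control (-1.61 ± 0.22, adjusted p = 7.98e-05, edgeR). Tlr3, the receptor for double-stranded RNA, chosen after its values were seen, had a log2 fold change of -1.06 in sh-APP.

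In anti-Abeta, Traf2, an adaptor below the tumor necrosis factor receptors, rose by 0.42 ± 0.08 on the log2 scale (SE; adjusted p = 0.00431, edgeR), and Il17ra, an interleukin-17 receptor chain, by 0.45 ± 0.10 (0.00891). Birc2, a ubiquitin ligase that keeps the non-canonical kinase Map3k14 low, fell by 0.35 ± 0.09 (0.0156). Without control replicate 1 the log2 fold changes were close to these, at 0.39 for Traf2 (adjusted p = 0.0624), 0.39 for Il17ra (0.107) and -0.39 for Birc2 (0.0811), and none was called with the 1 control library left. Birc2 was also not called without control replicate 2 (-0.33, 0.0826), without anti-Abeta replicate 3 (0.0536) and with library totals alone (-0.20, 0.134). Map3k14 itself was at 12.5 CPM on average in sh-APP, 12.6 in anti-Abeta and 9.77 in control, and passed in neither comparison; it was chosen after its values were seen.

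**Figure D4:**
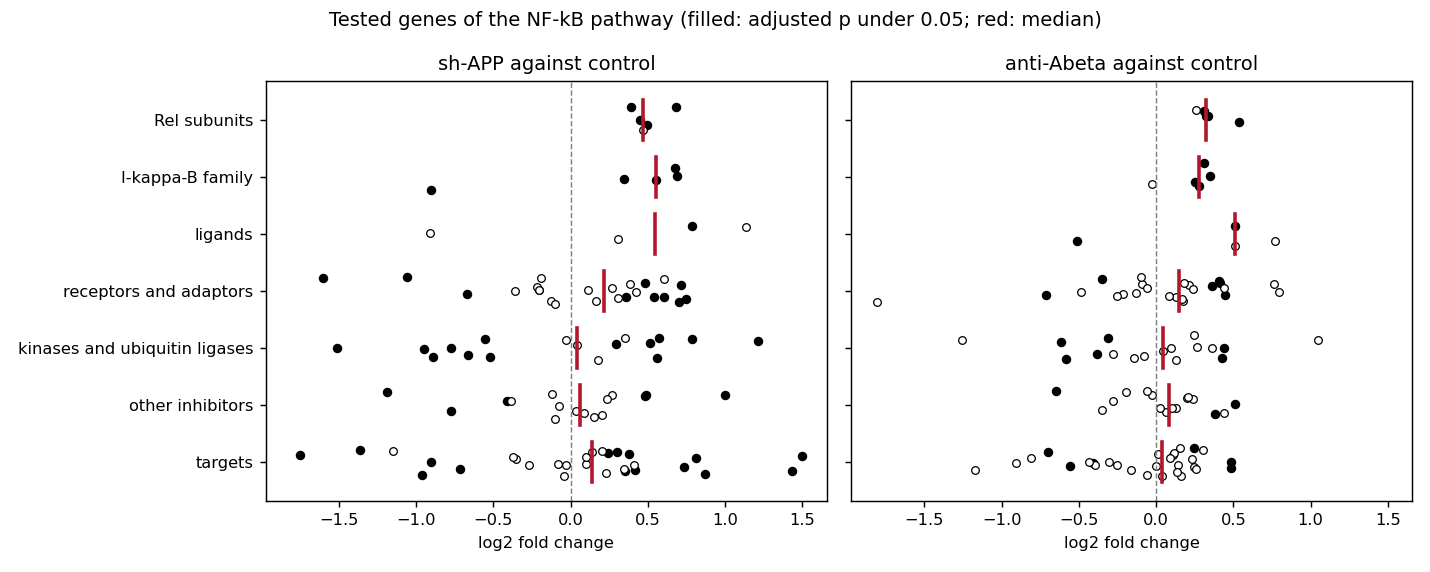
Log2 fold change (x axis) of each tested gene of the pathway, by its role, in sh-APP against control and in anti-Abeta against control; filled points have adjusted p under 0.05 in edgeR's test and the red line is the median of each role. The members lie mostly to the right, with Nfkbiz at -0.91 in sh-APP, while the other roles are spread to both sides of 0.

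The kinases and ubiquitin ligases of the pathway, listed with their partners, moved both ways: of 17 tested, 6 rose and 7 fell in sh-APP. In anti-Abeta 2 rose and 4 fell, and the list median was 0.04 in each arm. The list had 76.5% called in sh-APP, against 53.7% of all tested genes, and 35.3% in anti-Abeta, against 29.2%. With library totals 8 rose and 6 fell in sh-APP, and 6 rose and 3 fell in anti-Abeta. Chuk, the kinase IKK-alpha, stood at 55.5, 49.3 and 55.2 CPM in sh-APP, 63.4, 74.2 and 64.0 CPM in anti-Abeta, and 99.2 and 107 CPM in control. Both arms were clearly below control, with log2 fold changes of -0.95 ± 0.09 (SE; adjusted p = 8.32e-06, edgeR) in sh-APP and -0.62 ± 0.09 (0.00226) in anti-Abeta. Ikbkb, the kinase IKK-beta, chosen after its values were seen, was at 69.3 CPM on average in sh-APP, 65.4 in anti-Abeta and 61.3 in control and passed in neither comparison. Ikbkb overlaps Plat on the chromosome, so that its level is less certain. Tbk1, a related kinase of innate sensing, was lower by 0.77 ± 0.08 in sh-APP (adjusted p = 1.52e-05, edgeR).

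Skp1, a core subunit of the ligase that marks phosphorylated inhibitors for destruction, stood at 836, 937 and 873 CPM in sh-APP, 1104, 1110 and 1065 CPM in anti-Abeta, and 1756 and 1519 CPM in control. It fell by 0.89 ± 0.08 on the log2 scale in sh-APP (SE; adjusted p = 5.76e-06, edgeR) and by 0.58 ± 0.08 in anti-Abeta (0.00226). Cul1, the scaffold of the same ligase, fell by 0.55 in sh-APP; it overlaps Ezh2 on the chromosome, so that its level is less certain. Rbck1, of the complex that builds linear ubiquitin chains, stood at 79.3, 75.2 and 75.0 CPM in sh-APP, 55.9, 63.8 and 59.5 CPM in anti-Abeta, and 42.1 and 46.8 CPM in control. It rose by 0.78 in sh-APP, and by 0.43 ± 0.09 in anti-Abeta (adjusted p = 0.0055, edgeR), which was 0.34 and not called without control replicate 1 (0.094). The other subunits of that complex, Rnf31 (0.56) and Sharpin (0.51), also rose in sh-APP; Cul1, Rnf31 and Sharpin were chosen after their values were seen.

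Of 16 other inhibitors of the pathway, 3 rose and 3 fell in sh-APP, and 2 rose and 1 fell in anti-Abeta (with library totals 5 and 2 in sh-APP, and 4 and 1 in anti-Abeta). The share called was 37.5% in sh-APP, against 53.7% of all tested genes, and 18.8% in anti-Abeta, against 29.2%. The list's median log2 fold change was 0.06 in sh-APP and 0.08 in anti-Abeta. Tnfaip3, the deubiquitinase A20 and a well-known NF-kB target, was at 5.98 CPM on average in sh-APP, 6.21 in anti-Abeta and 5.38 in control and passed in neither comparison; it was chosen after its values were seen. Tnip1, which binds A20, stood at 37.5, 39.8 and 37.7 CPM in sh-APP, 34.8, 34.7 and 37.7 CPM in anti-Abeta, and 27.8 and 26.9 CPM in control. It rose by 0.49 ± 0.09 (SE, log2 scale; adjusted p = 0.000707, edgeR) in sh-APP and by 0.38 ± 0.09 (0.0103) in anti-Abeta, where leaving 1 control library ended the call but hardly moved the log2 fold change (0.40 without control replicate 1, adjusted p = 0.0777, and 0.36 without control replicate 2, 0.0639). Tank, an adaptor of Tbk1, fell by 1.19 ± 0.14 in sh-APP (adjusted p = 3.22e-05, edgeR). Nfkbil1, a gene named for a weak likeness to the inhibitors, rose by 1.00 ± 0.16 in sh-APP and overlaps Atp6v1g2. Nfkbid, another nuclear I-kappa-B gene, chosen after its values were seen, was at 0.831 CPM on average in sh-APP, 0.87 in anti-Abeta and 0.896 in control, too low to read a change.

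Of 29 tested genes known as NF-kB targets, 10 rose and 5 fell in sh-APP (51.7% called in either direction, against 53.7% of all tested genes), and 3 rose and 3 fell in anti-Abeta (20.7% against 29.2%). The share called was thus near or below that of all genes, and the list's median log2 fold change was 0.14 in sh-APP and 0.04 in anti-Abeta. With library totals 14 rose and 3 fell in sh-APP, and 7 rose and 1 fell in anti-Abeta. C3, the complement component, stood at 108, 110.4 and 138 CPM in sh-APP, 45.7, 45.5 and 45.9 CPM in anti-Abeta, and 36.3 and 48.2 CPM in control. It rose in sh-APP (1.49 ± 0.13 on the log2 scale, SE; adjusted p = 5.61e-06, edgeR), and its level in anti-Abeta lay within the range of control. Lcn2, a secreted lipocalin, rose by 0.73 ± 0.09 in sh-APP (3.34e-05). Ccl2, a chemokine for monocytes, moved the other way: 579, 728 and 669 CPM in sh-APP, 783, 905 and 821 CPM in anti-Abeta, and 1219 and 1244 CPM in control. In anti-Abeta, Cx3cl1, the chemokine fractalkine, rose by 0.49 ± 0.09 (adjusted p = 0.00338, edgeR) and Tapbp, which loads class I molecules, by 0.48 ± 0.12 (0.0124); without control replicate 1 they were at 0.41 (0.0654) and 0.33 (0.177) and not called. Il6 had 8 counts over all libraries and was not tested.

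Some genes outside the pathway followed members closely across the 8 libraries. Likeness was measured as the root mean square difference of log2 CPM, each gene centred on its own mean, over 10093 other genes of at least 5 CPM. The nearest to Relb were Apba3 (0.03), Dxo (0.04), Dus3l (0.04) and Dgkz (0.04), all small beside the spread of Relb itself (SD 0.30). Apba3, which overlaps Tjp3, averaged 60.8 CPM in sh-APP, 53.8 in anti-Abeta and 38.1 in control. The nearest to Nfkbiz were Dner (0.12), Pdgfra (0.14), Slc16a1 (0.15) and Ptn (0.16), against an SD of 0.55 for Nfkbiz. Pdgfra, the growth factor receptor of oligodendrocyte precursors, averaged 16.9 ± 0.374 CPM in sh-APP (SD, n = 3), 29.6 ± 9.07 CPM in anti-Abeta (n = 3) and 33.7 ± 1.71 CPM in control (n = 2). As with Nfkbiz, anti-Abeta replicate 2 was its highest library. Dner, a Notch ligand of neurons, and Ptn, the growth factor pleiotrophin, were called lower in sh-APP as well. All these genes were picked for likeness over the same 8 libraries, so the shared pattern follows from that choice and is no separate result. How close the nearest genes to other genes lie was not measured.

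Markers of other cell types moved beside these genes in part, and their part in the results was not tested. The summed level of 7 oligodendrocyte lineage markers was 525 to 533 CPM in sh-APP, 572 to 587 CPM in anti-Abeta and 527 to 529 CPM in control, and Olig2 alone averaged 494 CPM in sh-APP, 522 CPM in anti-Abeta and 473 CPM in control. Of the 7, Pdgfra fell in sh-APP and none rose, and in anti-Abeta Cspg4 rose (log2 fold change 0.96, adjusted p = 0.0202, edgeR) and none fell. The sum of 5 neuron markers was 131 to 140.1 CPM in sh-APP, 205 to 266 CPM in anti-Abeta and 306 to 335 CPM in control. Of the 5, Snap25 and Map2 fell in both arms, while Tubb3 (log2 fold change 1.00, adjusted p = 0.00547, edgeR) and Rbfox3 (0.72, 0.0405) rose in sh-APP. Endothelial markers summed to 6.14 to 8.37 CPM in sh-APP, 3.30 to 5.67 CPM in anti-Abeta and 2.59 to 3.11 CPM in control, with Cldn5 at 0 in all libraries. Most of this sum was Egfl7, which overlaps Agpat2 on the chromosome, and the other endothelial markers found averaged under 1 CPM. Pericyte and fibroblast markers summed to 30.4 to 33.1 CPM in sh-APP, 21.0 to 26.3 CPM in anti-Abeta and 18.9 to 23.1 CPM in control. Of 7 melanocyte and melanoma markers, Mlana, Pmel, Tyr, Dct and Tyrp1 averaged under 1 CPM, and the sum, nearly all of it Gpnmb, was 2199 to 2390 CPM in sh-APP, 3481 to 3755 CPM in anti-Abeta and 4226 to 4296 CPM in control. Against control in sh-APP, Egfl7 (log2 fold change 1.36), Kdr (2.99, under 1 CPM), Col1a1 (0.76) and Pdgfrb (0.92) were called higher by edgeR. Gpnmb (-0.91) and Mitf (-0.62) were called lower there. Of the endothelial, pericyte and melanoma lists, only Gpnmb was called in anti-Abeta against control (-0.22, lower).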

How the data were processed

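The authors deposited raw counts per gene symbol for 8 libraries, all whole numbers. Per the submitters' processing notes the tools, named without roles, were STAR 2.6.0a, HTSeq 0.11.1, FastQC 0.11.7, Trimmomatic 0.36, SAMtools 1.9 and DESeq2 1.24.0, and the build rn6; settings and strandedness: not given in the sources used here. Of the entries, 8853 held no count. The 8 libraries were fitted together by group with edgeR 4.0.16 under R 4.3.3: filterByExpr (minimum count 10, total 15), TMM factors, robust quasi-likelihood test, Benjamini-Hochberg adjustment over 14445 genes, threshold 0.05. SE is the log2 fold change over the square root of F. The members, the 5 pathway lists, the marker lists and the motifs were chosen with earlier results of these data known. Named by rule were all members, the 3 called genes of smallest p in each list and arm, and the 4 genes most like Relb and Nfkbiz (log2 CPM, prior count 2); others are marked as chosen after their values were seen. DESeq2 1.42.0, limma-voom 3.58.1, other scalings, filters and samples were alternatives. The fit was tested on simulated data. Gene overlaps and promoters come from RefSeq tables of GRCr8, a later build than rn6.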

Additional observations from a re-analysis of the deposited data

How the results depend on the processing

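The number of members called higher in sh-APP against control was 8 in the 10 alternatives that keep every library of the groups compared. It was 7 to 8 with a library left out. The number called lower there was 1, and 0 with library totals only, 0 with no low-count filter and 0 to 1 with a library left out. For anti-Abeta against control, 8 were called higher, 7 with no low-count filter, 6 with limma-voom, 5 with DESeq2-type size factors, 5 with only the groups compared, 4 with the replicate block, and 1 to 7 with a library left out. Over all genes tested, 1832 were called higher in the main fit of this comparison. That number was 1771 with no low-count filter, 1623 with limma-voom and 1625 with DESeq2-type size factors. It was 1357 with only the groups compared and 1310 with the replicate block. The number of members called lower was 0, and 0 to 1 with a library left out. For sh-APP against anti-Abeta, 3 were called higher (4 with upper-quartile factors, 4 with library totals only, 1 to 3 with a library left out) and 1 lower (0 with no low-count filter, 0 to 1 with a library left out). Leaving out a control library leaves 1, assumed to vary like the other groups. The cause of these changes was not tested. Values that changed sign were uncalled in edgeR's main test. In anti-Abeta against control, Rel (0.26) was at -0.13 with the replicate block and from -0.0921 to 0.61 with a library left out; Nfkbiz (-0.03) was at 0.0195 with upper-quartile factors, 0.115 with library totals only, 0.011 with the replicate block and from -0.42 to 0.18 with a library left out; Il1rap (-0.13) and Dner (-0.07) were at 0.0209 and 0.0754 with library totals only, Dner ran from -0.45 to 0.10 and C3 (0.11) from -0.0872 to 0.33 with a library left out. In sh-APP against anti-Abeta, Rel (0.20) ran from -0.12 to 0.56. With library totals only, the median of all genes moved by 0.20 in sh-APP and 0.15 in anti-Abeta, and 5174 rose and 3091 fell in sh-APP, against 3723 and 4027 with TMM factors. Relative to that shift Relb was at 0.69 and 0.54, Nfkbiz at -0.91 and -0.04. Taking off a shift common to all genes returns nearly the TMM values by arithmetic, so these values do not check the scaling. Deviations of same-numbered libraries from their group means had correlations from -0.01 to 0.11. With 2 or 3 libraries a group, such values cannot show whether the numbers mark shared cultures. Whether the libraries are paired is therefore not known. Depth limits Rel, with 13 to 55 counts a library. Library numbers follow the groups (7 to 9 in sh-APP, 4 to 6 in anti-Abeta, 1 and 2 in control), so order and group cannot be told apart.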

Other observations

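Promoters with kappa-B letters were also looked at beyond the family, as a description. Of 513 tested genes outside it whose window held a match to the kappa-B consensus, 30.4% were called higher and 24.6% lower in sh-APP against control, while of 9660 genes without a match 28.0% were higher and 29.5% lower. In anti-Abeta against control the shares were 16.2% higher and 12.7% lower with a match, and 13.8% higher and 17.8% lower without. The median log2 fold change was 0.12 with and 0.04 without a match in sh-APP, and 0.08 with and 0.03 without in anti-Abeta. GC content and expression level of the windows' genes were not matched. Map3k7, the kinase TAK1 that links receptors to the kinase complex, was not tested, with a sum of 2 counts over the 8 libraries, whereas its partners Tab1 and Tab2 averaged 85.2 and 17.3 CPM in sh-APP, 77.5 and 15.9 CPM in anti-Abeta, and 57.2 and 16.8 CPM in control; why the entry is nearly empty was not tested.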
